A study of Mus musculus with 12 samples.

Results

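The genes described here are 41 mouse genes whose transcription interferons are known to induce, taken by symbol from a list and found, all 41, among the 23382 rows of a table of hippocampal RNA-seq counts. They hold sensors of foreign RNA, transcription factors of the interferon pathway, proteins that block virus replication, membrane-bound restriction factors, enzymes of ISG15, ubiquitin and ADP-ribose tagging, guanylate-binding proteins and a remainder of other induced genes. Of these, 39 passed the filter on low counts and entered the tests with 15802 genes in all. Mx1 and Zbp1 did not pass and are given by their counts.

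The libraries were made from total hippocampal RNA of mice on a C57BL/6 background and form 4 groups of 3. The first group held aDN-DISC1 mutant mice given Δ9-THC (THC below, the compound of cannabis that acts on the brain), the second mutant mice given vehicle, the third control mice given THC and the fourth control mice given vehicle. Per the series title, THC was given in adolescence and the genetic vulnerability lies in astrocytes. The name aDN-DISC1 is used as the labels give it, and the sources used here do not give the promoter that drives the mutant gene. Dose, age and sex are not given in the labels either. The genotype of the control libraries is known only from their titles. Whether each library is a separate mouse is stated only as a number per group, so the p-values cover only the spread among these libraries, which may be technical. By the library numbers in the labels, the vehicle libraries hold numbers 6 to 11 and the THC libraries numbers 1 to 5 and 12. Treatment and library order can therefore not be told apart. The mutant vehicle libraries hold numbers 8, 9 and 10 in a row, and the control vehicle libraries 6, 7 and 11. Under vehicle, genotype is thus not mixed evenly over that order either.

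As background, type I interferons bind a receptor of the subunits Ifnar1 and Ifnar2, whose kinases Jak1 and Tyk2 pass the signal on by phosphorylation. A complex that holds Stat2 and Irf9 then binds interferon-stimulated response elements (ISRE) near the starts of its target genes, while interferon gamma acts through a different site, the GAS element. In the brain, neurons, astrocytes and microglia as well as cells of the vessels, meninges and choroid plexus can all turn on such genes.

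Because the ISRE is the site through which type I interferon acts on its targets, it is shown here for 6 members, some of which share a role. No sensor, transcription factor or guanylate-binding protein is among them. The windows searched were 300 bases long, 250 before and 50 after the transcription start, as RefSeq gives them for GRCm38.p6. A window was at hand for 32 members, and 17 of them (53.12%) held the ISRE core GAAANNGAAA or its reverse complement TTTCNNTTTC, against 3.993% of the 27025 genes with a window. The GAS element TTCNNNGAA, which reads the same on both strands, was in 7 of the 32 (21.88%), against 9.554% of all genes with a window, and 4 members held both. The ISRE stretches are printed 5′ to 3′ on the strand of the gene, upstream of the start, with the core matches in capitals; where matches overlap, the capitals run on. A match is a description of the letters, not evidence of binding.
Isg15 (chr4:156200865-156200926, minus strand): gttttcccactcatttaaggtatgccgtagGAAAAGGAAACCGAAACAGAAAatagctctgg
Ifit1 (chr19:34640755-34640823, plus strand): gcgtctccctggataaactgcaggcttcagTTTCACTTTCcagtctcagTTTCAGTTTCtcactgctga
Ifit3 (chr19:34583343-34583426, plus strand): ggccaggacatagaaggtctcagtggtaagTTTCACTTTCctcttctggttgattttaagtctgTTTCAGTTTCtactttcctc
Bst2 (chr8:71537577-71537632, minus strand): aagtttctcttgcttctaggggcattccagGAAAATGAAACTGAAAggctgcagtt
Ifitm2 (chr7:140955988-140956037, minus strand): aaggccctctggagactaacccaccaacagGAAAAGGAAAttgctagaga
Cxcl10 (chr5:92349083-92349132, minus strand): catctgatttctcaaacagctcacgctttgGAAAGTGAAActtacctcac
Isg15 carried 3 overlapping core matches, the outermost beginning 78 bases before its start. Ifit1 and Ifit3, neighbours on chromosome 19, each carried 2 matches in the TTTC orientation. In Ifitm2 the single match began 46 bases before the start, and in Cxcl10 it began 213 bases before it.

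All 41 members had reads in all 12 libraries. Set against transcript length, Ifi27, a mitochondrial protein gene induced by interferon, was the most abundant at 41.4 CPM per kilobase (CPM, counts scaled to a library of 1e+06). The antiviral membrane genes Ifitm3 and Ifitm2 followed at 11.1 and 10.2 CPM per kilobase. Isg15, which encodes the ubiquitin-like tag ISG15, was at 0.891 CPM per kilobase. At the low end stood Ifi44 at 0.182, Zbp1, a sensor of Z-form nucleic acid, at 0.103 and Mx1, a GTPase that blocks viruses, at 0.0685 CPM per kilobase. Mx1 had 3 to 10 counts and Zbp1 3 to 11 counts per library, and the annotation lists Mx1 and Mx2 as transcribed pseudogenes in this strain. Several members lie beside each other, among them Ifitm2 (chr7:140954837-140959686), Ifitm1 (chr7:140967429-140969827) and Ifitm3 (chr7:141009590-141010744). For Ifit1, Ifit3, Eif2ak2, Dtx3l, Xaf1 and Trim30a, between 91.7% and 100% of the libraries had fractional counts, which come from reads shared with other transcripts, so their values are less certain than the rest. The sources used here do not say whether counting used strand, so reads of an overlapping antisense gene could be counted too.

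Total counts were 33165903 to 41389957 per library. The mouse Disc1 row averaged 2.25 ± 0.811 CPM in mutant THC, 2.54 ± 0.218 in mutant vehicle, 2.49 ± 0.0829 in control THC and 2.26 ± 0.414 in control vehicle libraries (SD, n = 3 each). The level of this row does not separate the genotypes. Whether reads of the mutant gene are counted in it was not tested. All 16 hippocampal neuron markers were above 0 in every library. They summed to 2325 to 3216 CPM in mutant THC and 2637 to 2893 in mutant vehicle libraries. In control THC they summed to 2960 to 3457 CPM and in control vehicle libraries to 2891 to 3045 CPM. The lowest sum, 2325 CPM, was in mutant THC library 3. Choroid plexus markers were not even: their 16 genes summed to 7000, 104.7 and 3277 CPM in the mutant THC libraries and to 4047, 6319 and 11190 CPM in the mutant vehicle libraries. In the control THC libraries they summed to 127.8, 5842 and 134.8 CPM, and in the control vehicle libraries to 115.8, 77.9 and 150 CPM. Striatal markers (12 genes) summed to 4935 CPM in mutant THC library 3 and 671 CPM in mutant vehicle library 3, against 243 to 287 CPM in the other libraries. Microglial markers (14 genes, none at 0) summed to 546 to 580 CPM in mutant THC, 549 to 574 in mutant vehicle, 489 to 536 in control THC and 481 to 588 in control vehicle libraries. Markers of perivascular macrophages and leukocytes (12 genes, with Cd3e and Cd79a at 0 in some libraries) summed to 21.6 to 31.9 CPM in mutant THC, 30.4 to 42.1 in mutant vehicle, 24.8 to 33.1 in control THC and 24.2 to 30.3 in control vehicle libraries. Those of mural and meningeal cells (16 genes) summed to 318 to 485 CPM in mutant THC, 462 to 532 in mutant vehicle, 383 to 434 in control THC and 321 to 347 in control vehicle libraries. Oligodendrocyte markers (12 genes, none at 0) summed to 5461 to 10730 CPM in mutant THC, 9203 to 13870 in mutant vehicle, 4185 to 9011 in control THC and 5372 to 6711 in control vehicle libraries. Ependymal markers (8 genes, none at 0) summed to 43.2 to 66.2 CPM in mutant THC, 38.1 to 104.9 in mutant vehicle, 27.5 to 58.6 in control THC and 18.9 to 40.9 in control vehicle libraries. In bulk tissue, fewer cells of a type and less RNA per cell cannot be told apart.

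The members were most abundant in mutant mice given vehicle. That group had the highest mean of the 4 groups for 32 of the 39 tested members, against 28.21% of all genes tested, and the lowest for 0 of them. Control vehicle libraries had the lowest mean for 20 members, against 27.37% of all genes. The mean log2 CPM over the members was 2.00 ± 0.11 in mutant THC, 2.31 ± 0.09 in mutant vehicle, 2.05 ± 0.07 in control THC and 1.91 ± 0.08 in control vehicle libraries (SD, n = 3 each). The 3 mutant vehicle libraries stood at 2.27, 2.24 and 2.41, above each of the other 9, of which the highest was mutant THC library 1 at 2.13. Yet no single member passed an adjusted p of 0.05 in any of the 7 comparisons made with edgeR's quasi-likelihood test and Benjamini-Hochberg adjustment over all genes.

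**Figure D1:**
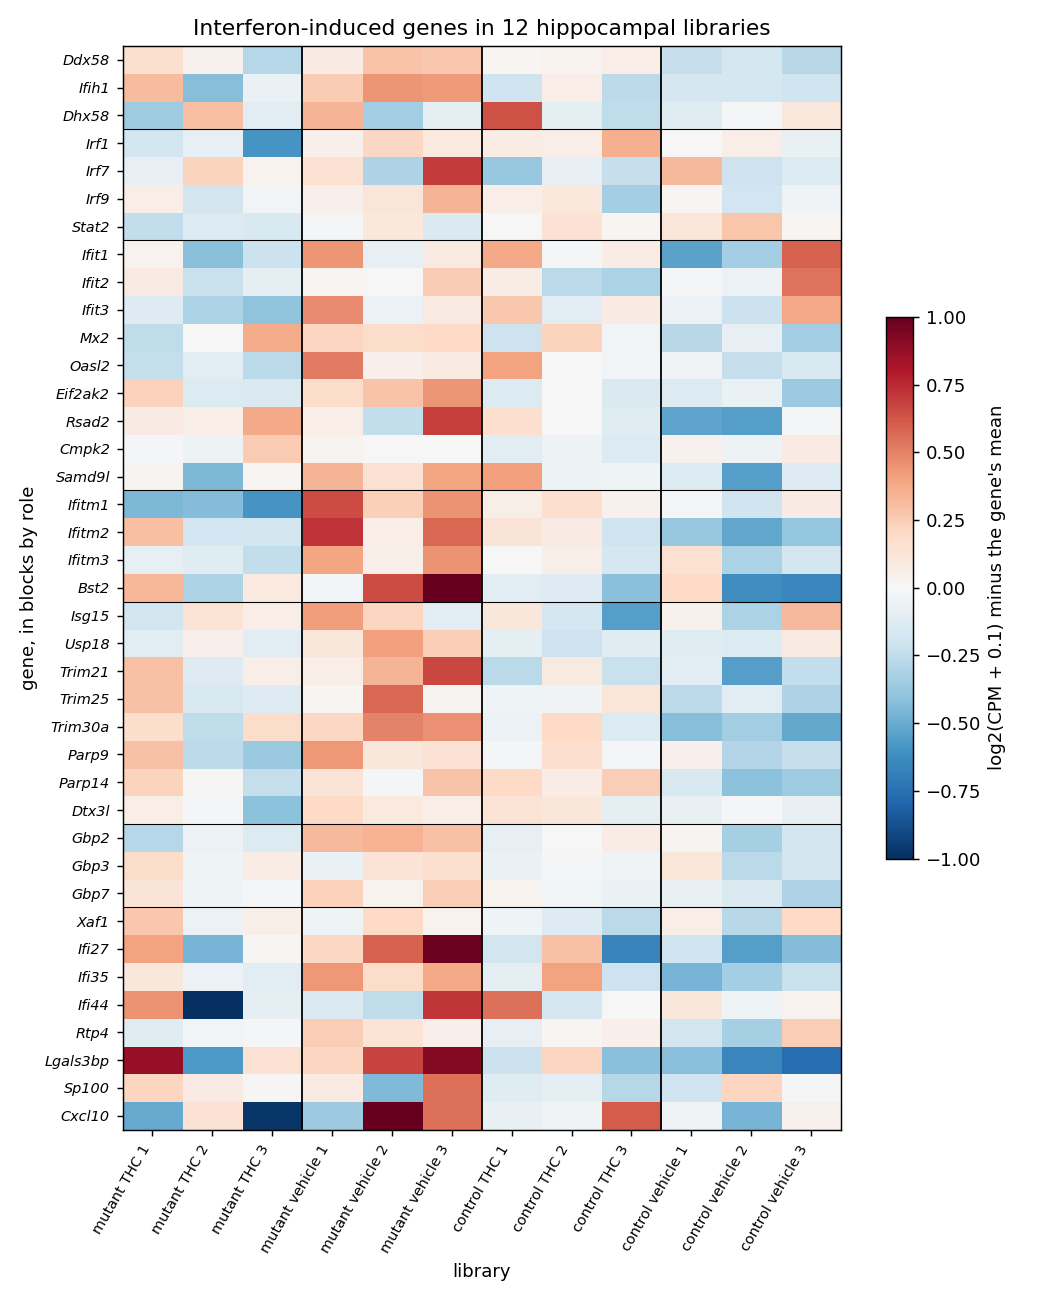
Level of each tested interferon-induced gene (rows, in blocks by role) in each of the 12 libraries (columns), as log2(CPM + 0.1) minus the gene's own mean over the libraries; the colours end at -1 and 1. The mutant vehicle columns hold the highest value of the 12 for 29 of the 39 genes.

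Mutant vehicle libraries 1, 2 and 3 held the highest value of the 12 libraries for 9, 7 and 13 members, 29 of 39 together. Over all genes tested, the same libraries were highest for 4.601%, 5.512% and 15.78%. Within the mutant THC group, library 1 (choroid plexus sum 7000 CPM) was highest for 24 of the 39 members, against 35.85% of all genes, and library 2 (104.7 CPM) was lowest for 18, against 35.48%. In that group library 3 (3277 CPM) was highest for 5, against 31.13%, and lowest for 14, against 36.29%. Library 2 was highest for 10, against 33.02%. Within the mutant vehicle group, library 3 (11190 CPM) was highest for 16 members, against 35.48% of all genes. There, library 2 (6319 CPM) was lowest for 19, against 26.06%, and library 1 (4047 CPM) for 15, against 33.72%. Library 1 was highest for 13, against 33.73%, and library 2 for 10, against 30.79%. Among the control THC libraries, library 2 (5842 CPM) was highest for 17 members, against 32.03% of all genes, and library 1 (127.8 CPM) for 15, against 32.05%. Library 3 (134.8 CPM) was lowest for 22, against 36.93%. Among the control vehicle libraries, library 1 (115.8 CPM) was highest for 16, against 32.99%, and library 3 (150 CPM) for 14, against 31.63%. In the same group library 2 (77.9 CPM) was lowest for 23, against 35.97%. The part of the choroid plexus in these ranks was not tested.

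**Figure D2:**
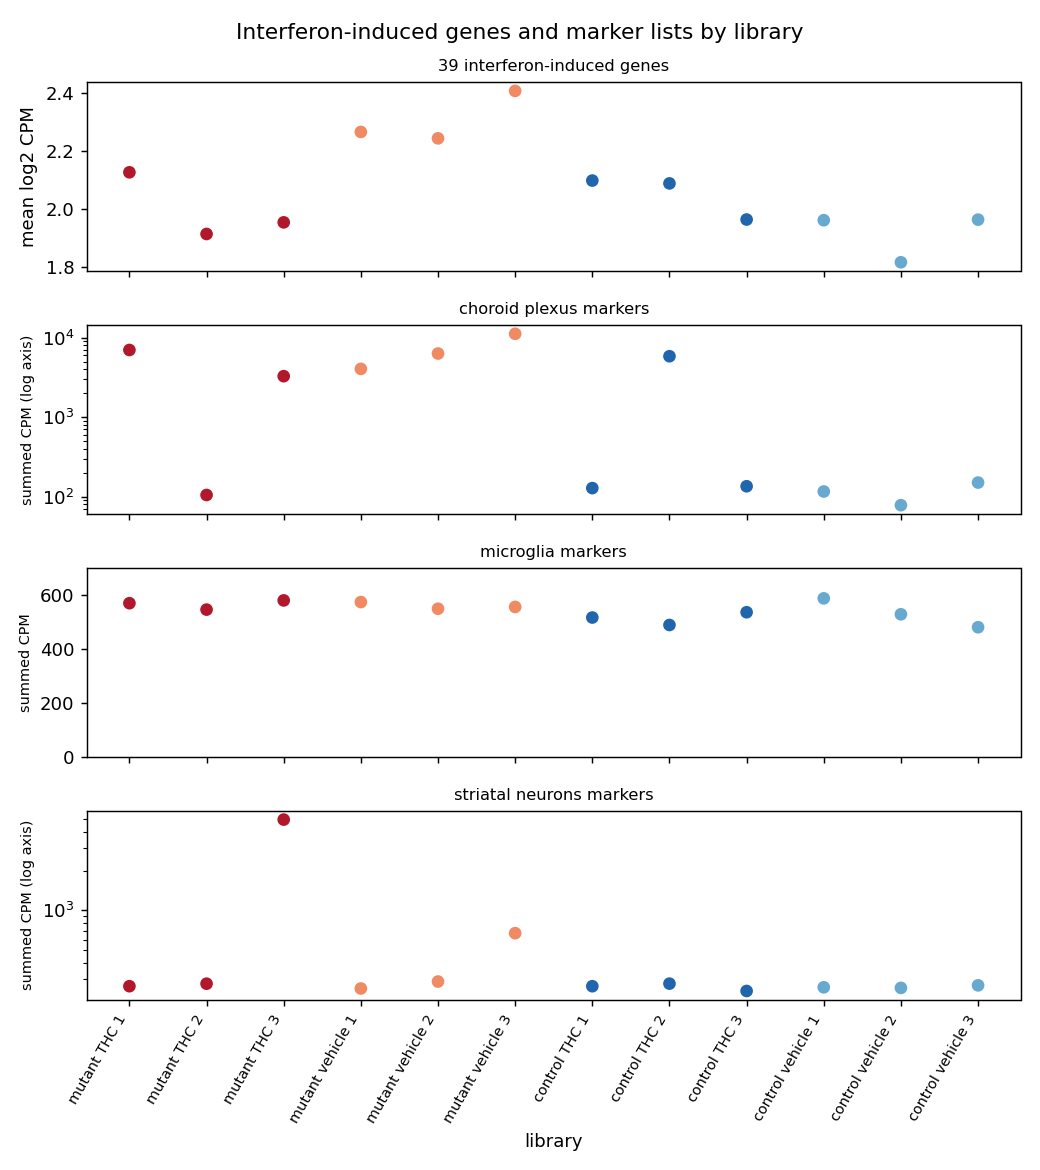
Mean log2 CPM of the 39 tested interferon-induced genes and the summed CPM of microglial, choroid plexus and striatal markers in each of the 12 libraries (x axis); marker panels other than microglia have log axes. The 3 mutant vehicle points of the top panel, 2.24 to 2.41, lie above all others, and their choroid plexus sums are 4047 to 11190 CPM, against 77.9 to 150 CPM in control vehicle libraries.

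Mutant mice given vehicle had higher mean levels of most members than control mice given vehicle. Lgals3bp, a secreted galectin-binding protein, averaged 15.8 ± 3.73 CPM in mutant vehicle and 6.63 ± 0.832 CPM in control vehicle libraries (SD, n = 3 each, here and in the next sentences). Ifi27 averaged 52.7 ± 14.1 CPM in mutant vehicle and 26.1 ± 3.35 CPM in control vehicle libraries. Trim30a, a TRIM protein, averaged 3.92 ± 0.420 CPM in mutant vehicle and 2.18 ± 0.134 CPM in control vehicle libraries. None of these passed the adjusted threshold in edgeR. Over the list, 36 of the 39 members had a log2 fold change above 0 and their median was 0.39, against -0.01 over all genes tested. An unadjusted p under 0.05 was reached by 19 members, all higher in mutants, against 11.2% of all genes in that direction, and 0 members were lower, against 6.63%. The mutant and control libraries did not overlap for 21 members, all higher in mutants, against 15.3% of all genes. The edgeR count past the adjusted threshold was 0 members and 1 gene of all tested (0.00633%), with a smallest adjusted p of 0.16 among the members. DESeq2 called 11 members, all higher in mutants, against 5.1% of all genes with an adjusted p. These were Ddx58, Ifih1, Eif2ak2, Ifitm2, Trim21, Trim30a, Gbp2, Gbp7, Ifi27, Ifi35 and Lgals3bp. A fit of only the groups compared called 7, against 3.37%, and limma-voom called 0. Leaving out each library in turn gave 16 to 21 members at the unadjusted threshold. Choroid plexus markers moved with this comparison: all 16 were higher in mutants at the unadjusted threshold, and their median was 5.17 on the log2 scale. All 12 oligodendrocyte markers were higher in mutants without overlap, 5 of them at the unadjusted threshold, with a median of 0.39. Ependymal markers were above 0 for 8 of 8, with 6 at the threshold and a median of 1.26, and 4 of 10 tested markers of perivascular macrophages and leukocytes and 4 of 16 of mural and meningeal cells were higher at the threshold. The part of these other cell types in the members' values was not tested. With the mean log2 CPM of the 16 choroid plexus markers as covariate, the median of the members was 0.30 and 5 reached the unadjusted threshold. In that fit Lgals3bp and Ifi27 lay far nearer 0 and Gbp2 did not, as given below for each. The share of all genes at the unadjusted threshold was not counted in the alternative fits. Counts of members at that threshold in those fits, here and below, therefore have no background beside them. Because the choroid plexus markers were high in all 3 mutant vehicle and low in all 3 control vehicle libraries, genotype and these markers cannot be told apart from the vehicle libraries' group means alone. The fit takes the covariate's slope from the spread of all 12 libraries within their 4 groups, and this holds for each value under vehicle given with the covariate.

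Mutant mice given THC had lower mean levels of most members than mutant mice given vehicle. Ifitm1, which restricts virus entry, averaged 1.17 ± 0.0745 CPM in mutant THC and 2.35 ± 0.353 CPM in mutant vehicle libraries (SD, n = 3 each, here and in the next sentence). Gbp2, a guanylate-binding GTPase, averaged 4.89 ± 0.381 CPM in mutant THC and 6.87 ± 0.138 CPM in mutant vehicle libraries. Neither passed the adjusted threshold in edgeR. Over the list, 37 of 39 members had a log2 fold change below 0, Cmpk2 and Xaf1 being the others, and the median was -0.32, against -0.01 over all genes. An unadjusted p under 0.05 was reached by 12 members, all lower with THC, against 3.2% of all genes in that direction. The groups did not overlap for 11 members, all lower, against 4.4% of all genes lower and 4.07% higher. The edgeR count past the adjusted threshold was 0, as it was over all genes (0%), with a smallest adjusted p of 0.81 among the members. DESeq2 called 1 member, Ifitm1, lower with THC, against 0.019% of all genes, and limma-voom called 0. The count of 12 was 6 without mutant THC library 2 or without mutant THC library 3, 7 without mutant vehicle library 3, and 3 without both libraries that carry raised striatal markers. A fit of only the groups compared gave 6, and the choroid plexus covariate gave 9 with a median of -0.23. At the unadjusted threshold, 4 of 10 tested markers of perivascular macrophages and leukocytes were lower with THC in mutants. So were 5 of 16 of mural and meningeal cells. Choroid plexus markers were below 0 for 16 of 16, with a median of -0.97 and 0 at that threshold. The part of these cell types in the result was not tested. This comparison and the one of genotypes under vehicle share the 3 mutant vehicle libraries, so their values are not independent.

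In controls, THC against vehicle, 31 of 39 members had a log2 fold change above 0 and the median was 0.15, against 0.00 over all genes. An unadjusted p under 0.05 was reached by 5 members, Ddx58, Ifitm2, Trim30a, Parp14 and Ifi35, all higher with THC, against 3.55% of all genes, and 0 were lower, against 3.45%. The groups did not overlap for 9 members that were higher, against 8.3% of all genes, and for 1 that was lower, against 8.07%. The edgeR, DESeq2 and limma-voom counts past the adjusted threshold were 0, with a smallest edgeR adjusted p of 0.70. The count of 5 was 3 without control THC library 1, 2 without control THC library 2, 3 without control vehicle library 1 and 3 without control vehicle library 2, and 2 with the choroid plexus covariate. At the same threshold a single member was lower without mutant THC library 3, control THC library 1, control vehicle library 1 or control vehicle library 2. Choroid plexus markers were above 0 for 16 of 16 with THC in controls, 7 of them at that threshold, with a median of 3.20. Their part in the members' values was not tested.

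The difference between the THC effects in mutants and in controls, the interaction, was below 0 for 33 of 39 members, with a median of -0.47 on the log2 scale against 0.00 over all genes. An unadjusted p under 0.05 was reached by 14 members, all with a lower THC effect in mutants, against 4.42% of all genes in that direction, and 0 passed the adjusted threshold in edgeR, DESeq2 or limma-voom, with a smallest edgeR adjusted p of 0.48. Leaving out each library in turn gave 10 to 19 members at the unadjusted threshold. For 4 members the THC libraries lay below all vehicle libraries in mutants and above all vehicle libraries in controls, against 0.519% of all genes. All 16 choroid plexus markers were below 0 in the interaction too, 7 of them at the unadjusted threshold, with a median of -4.21. Of 10 tested markers of perivascular macrophages and leukocytes, 10 were below 0 and 5 reached that threshold. Microglial markers were above 0 for 12 of 14, with 0 at the threshold. The part of these cell types in the interaction was not tested.

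Under THC, mutants against controls, 18 members had a log2 fold change above 0 and 21 below, with a median of -0.00. Irf1, Stat2 and Ifitm1 reached an unadjusted p under 0.05, all lower in mutants, against 4.27% of all genes, and 0 members did so in the other direction, against 4.71%. Past the adjusted threshold edgeR, DESeq2 and limma-voom called 0 members, with a smallest edgeR adjusted p of 0.55. The lower count was 5 without mutant vehicle library 1. The higher count was 1 without mutant THC library 1 and 2 without mutant THC library 2. Under THC 11 of 12 striatal and 11 of 12 oligodendrocyte markers were higher in mutants at that threshold, against 4.71% of all genes. Of 16 hippocampal neuron markers 5 were lower, against 4.27%. All 14 microglial markers were above 0, with 2 at the threshold. The part of these cell types in the members' values under THC was not tested. Averaged over treatments, 11 members were higher in mutants at the unadjusted threshold, against 12.2% of all genes, and 1, Stat2, was lower, against 9.01%, so the share of members that was higher lay above the background and the lower share below it. With the choroid plexus covariate 0 members were left on either side. The libraries of the genotypes overlapped for all 39 members over both treatments, where 0.411% of all genes lay wholly higher and 0.753% wholly lower in mutants. The edgeR smallest adjusted p was 0.16, DESeq2 called 5 members higher in mutants against 5.29% of all genes, limma-voom called 0, and edgeR without mutant THC library 2 called 3 (Lgals3bp, Trim30a and Ifih1), against 5.91% of all genes. Without that library 2 members were lower at the unadjusted threshold. Averaged over genotypes, THC left 1 member, Ifitm1, at the unadjusted threshold, lower with THC, against 3.09% of all genes, and 0 were higher, against 2.96%, with a median of -0.08 over the members. Past the adjusted threshold edgeR, DESeq2 and limma-voom called 0. That lower count was 4 without mutant THC library 1 or without control vehicle library 2, and 2 without any 1 of mutant THC library 2, mutant vehicle libraries 2 and 3, control THC library 1 and control vehicle libraries 1 and 3. The THC and vehicle libraries of both genotypes together lay apart for 0 members, against 0.0949% of all genes lower and 0.139% higher.

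**Figure D3:**
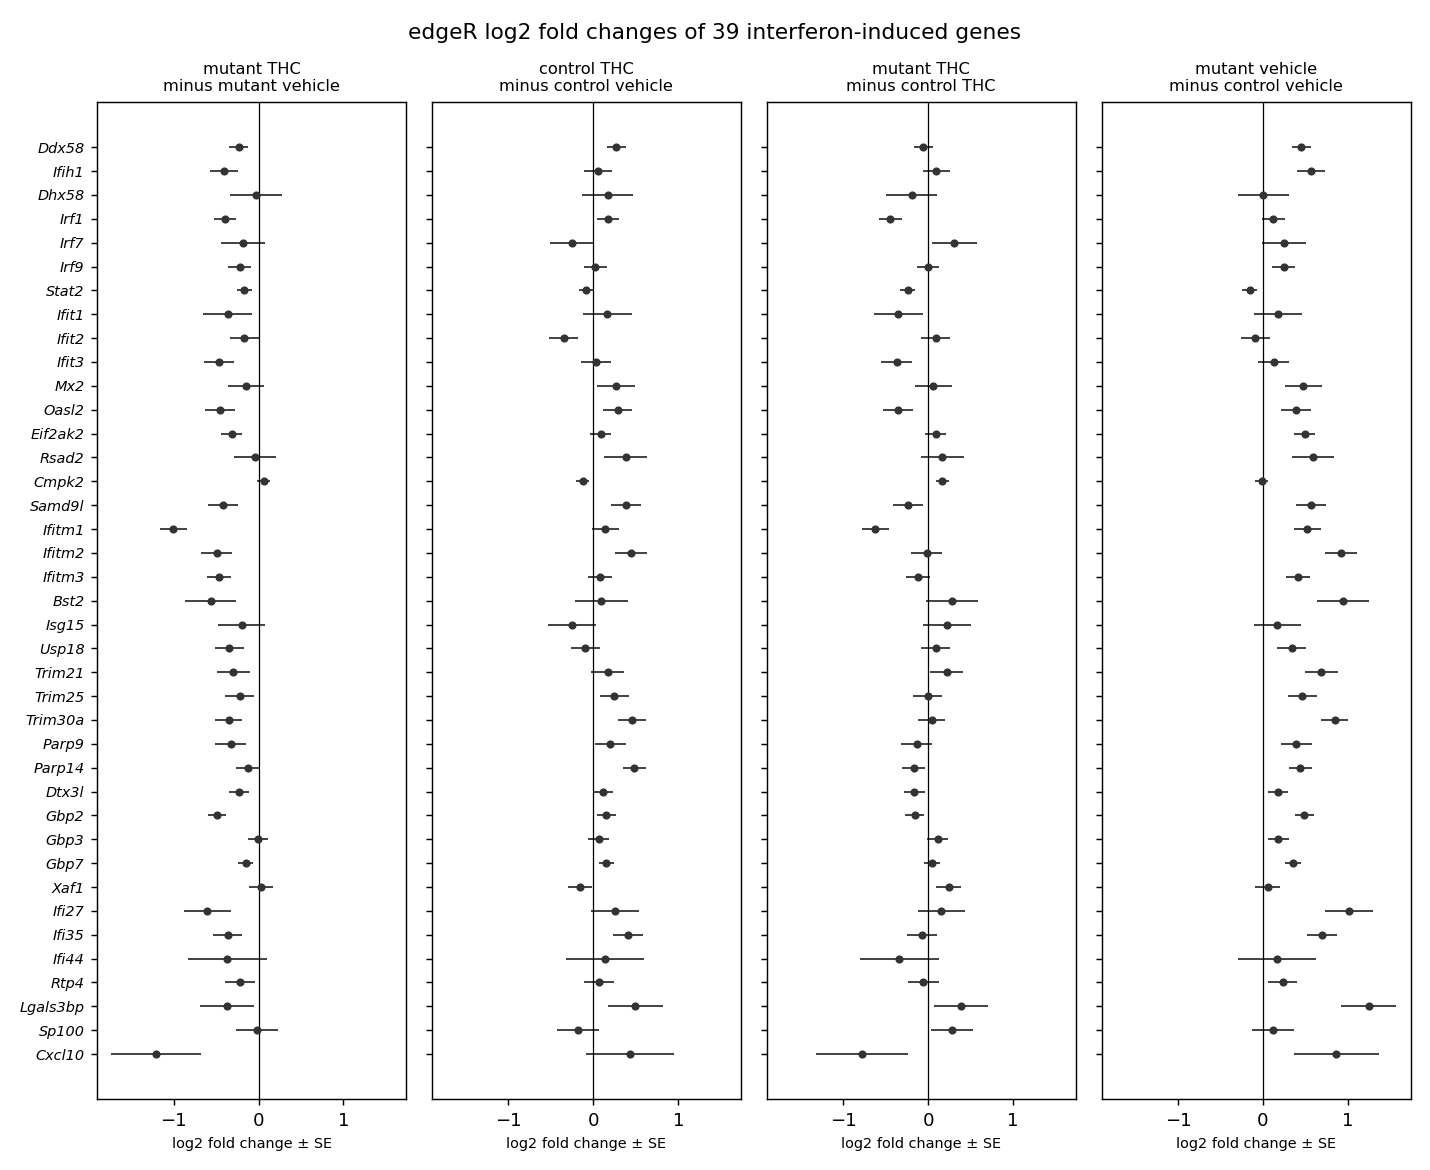
edgeR log2 fold change of each of the 39 tested interferon-induced genes (rows) with its standard error, in 4 comparisons (panels). Under vehicle most genes lie above 0 (median 0.39), in mutants given THC most lie below 0 (median -0.32), and no gene passes the adjusted threshold.

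Of the 7 role groups, the membrane restriction factors had the median farthest from 0 both under vehicle and with THC in mutants. Ifitm1, Ifitm2 and Ifitm3 hinder the fusion of viruses with the membranes of the cell, and Bst2 (tetherin) holds budding virus on the cell surface. All 4 were higher in mutants than in controls under vehicle at the unadjusted threshold, against 11.2% of all genes, at a median of 0.72 on the log2 scale. At that threshold 3 of 4 were lower with THC in mutants, against 3.2% of all genes, where the median was -0.53.

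Ifitm1 was at 1.202, 1.22 and 1.08 CPM in mutant THC libraries, 2.70, 2.00 and 2.33 CPM in mutant vehicle, 1.76, 1.90 and 1.74 CPM in control THC and 1.66, 1.45 and 1.78 CPM in control vehicle libraries. The mutant THC libraries were the lowest 3 of the 12 and the mutant vehicle libraries the highest 3, with no overlap with any other group. Its log2 fold change with THC in mutants was -1.0 (SE 0.16), the smallest unadjusted p among the members in any comparison, with an edgeR adjusted p of 0.81. Leaving out each library in turn moved it between -1.11 and -0.89, and with DESeq2 its adjusted p was 0.031. The interaction was -1.14 (SE 0.22; edgeR adjusted p = 0.48). For mutants against controls it was -0.62 (SE 0.16; edgeR adjusted p = 0.55) under THC and 0.52 (SE 0.16; edgeR adjusted p = 0.16) under vehicle. Averaged over genotypes the THC difference was -0.43 (SE 0.11; edgeR adjusted p = 0.79).

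Ifitm2 was at 7.99, 5.66 and 5.70 CPM in mutant THC, 10.7, 6.78 and 9.69 CPM in mutant vehicle, 7.08, 6.85 and 5.63 CPM in control THC and 4.95, 4.49 and 4.94 CPM in control vehicle libraries. The control vehicle libraries lay below all others. Under vehicle its log2 fold change in mutants was 0.92 (SE 0.19), and with THC it was -0.49 (SE 0.18) in mutants and 0.44 (SE 0.19) in controls. The interaction was -0.94 (SE 0.26) and the genotype difference averaged over treatments was 0.45 (SE 0.13). The edgeR adjusted p was 0.16 for both genotype values, 0.81 and 0.70 for THC in mutants and controls, and 0.66 for the interaction.

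Ifitm3 was at 7.0, 6.79 and 6.22 CPM in mutant THC, 9.74, 7.67 and 10.2 CPM in mutant vehicle, 7.44, 7.73 and 6.59 CPM in control THC and 8.24, 5.94 and 6.49 CPM in control vehicle libraries. The mutant groups did not overlap, with a log2 fold change of -0.46 (SE 0.14; edgeR adjusted p = 0.81) for THC. Under vehicle 1 control library reached above the lowest mutant one, and the value for mutants was 0.42 (SE 0.14; edgeR adjusted p = 0.18). Bst2 was at 3.94, 2.47 and 3.33 CPM in mutant THC, 3.04, 4.94 and 6.42 CPM in mutant vehicle, 2.87, 2.83 and 2.30 CPM in control THC and 3.58, 1.99 and 1.94 CPM in control vehicle libraries. Its libraries overlapped between all groups compared, and its log2 fold changes were 0.94 (SE 0.31; edgeR adjusted p = 0.17) in mutants under vehicle and -0.57 (SE 0.30; edgeR adjusted p = 0.81) with THC in mutants. With the choroid plexus covariate the values under vehicle were 0.74 for Ifitm2 and 0.39 for Bst2.

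**Figure D4:**
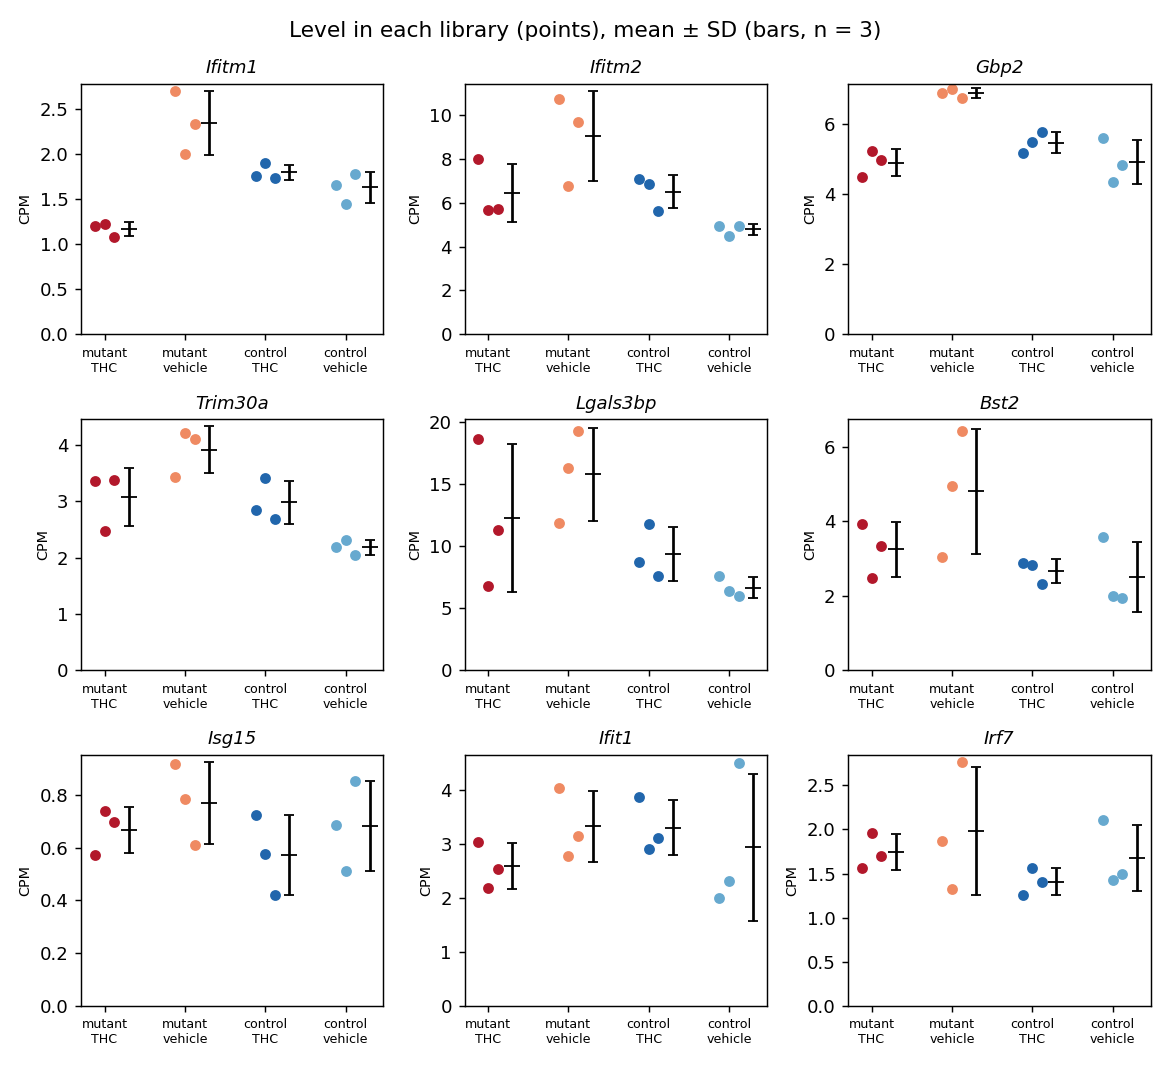
CPM of named interferon-induced genes in each library (points) with the mean and SD of each group (bars, n = 3), groups from mutant THC at the left to control vehicle at the right. For Ifitm1 the mutant THC points, 1.08 to 1.22 CPM, lie below every other library and the mutant vehicle points, 2.00 to 2.70 CPM, above every other.

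Of the sensors, Ddx58 (RIG-I) and Ifih1 (MDA5) detect viral RNA in the cytoplasm and Dhx58 (LGP2) modulates both. Ddx58 was at 10.1, 9.29 and 7.38 CPM in mutant THC, 9.58, 11.02 and 10.9 CPM in mutant vehicle, 9.17, 9.25 and 9.45 CPM in control THC and 7.69, 7.98 and 7.42 CPM in control vehicle libraries. The control vehicle libraries lay below all libraries of mutant vehicle and control THC. The log2 fold change was 0.45 (SE 0.11; edgeR adjusted p = 0.16) in mutants under vehicle and 0.27 (SE 0.11; edgeR adjusted p = 0.70) with THC in controls. Ifih1 was at 10.03, 5.94 and 7.64 CPM in mutant THC, 9.56, 10.9 and 10.8 CPM in mutant vehicle, 6.97, 8.41 and 6.67 CPM in control THC and 7.13, 7.09 and 6.95 CPM in control vehicle libraries. Under vehicle the genotypes did not overlap, at 0.56 (SE 0.16; edgeR adjusted p = 0.16), while the mutant THC libraries spread on both sides of the control values. Dhx58 was at 0.721 to 1.53 CPM over the 12 libraries, with overlapping groups. Zbp1, which did not pass the filter, was at 0.289, 0.162 and 0.254 CPM in mutant vehicle libraries, against at most 0.150 CPM elsewhere, on 11 counts or fewer.

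Of the 4 transcription factors, 0 reached an unadjusted p under 0.05 in mutants under vehicle, against 11.2% of all genes higher and 6.63% lower. With 4 genes, a count of 0 says little against such shares. Irf1, which binds sites much like the ISRE, was at 7.15, 7.67 and 5.37 CPM in mutant THC, 8.40, 9.40 and 8.70 CPM in mutant vehicle, 8.56, 8.503 and 10.4 CPM in control THC and 8.11, 8.52 and 7.73 CPM in control vehicle libraries. The mutant THC libraries lay below all others. On the log2 scale its difference was -0.39 (SE 0.13; edgeR adjusted p = 0.81) with THC in mutants and -0.45 (SE 0.13; edgeR adjusted p = 0.55) for mutants under THC. Stat2, which lends the ISRE-binding complex its activating domain, was at 15.0, 16.2 and 16.0 CPM in mutant THC, 17.7, 19.2 and 16.1 CPM in mutant vehicle, 17.9, 19.7 and 18.1 CPM in control THC and 19.4, 21.7 and 18.1 CPM in control vehicle libraries. With Ifit2 and Cmpk2 it was among the 3 members below 0 in mutants under vehicle, at -0.16 (SE 0.09; edgeR adjusted p = 0.37), and was at -0.24 (SE 0.09; edgeR adjusted p = 0.55) in mutants under THC.

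Irf9, the DNA-binding part of that complex, was at 8.59, 7.22 and 8.05 CPM in mutant THC, 8.51, 8.91 and 10.4 CPM in mutant vehicle, 8.61, 8.81 and 6.45 CPM in control THC and 8.32, 7.17 and 8.01 CPM in control vehicle libraries. Its log2 fold change was 0.24 (SE 0.13; edgeR adjusted p = 0.36) in mutants under vehicle, where the groups did not overlap, and it became -0.02 with the choroid plexus covariate. Irf7, which amplifies the production of interferon, was at 1.56, 1.96 and 1.70 CPM in mutant THC, 1.86, 1.32 and 2.77 CPM in mutant vehicle, 1.25, 1.56 and 1.40 CPM in control THC and 2.11, 1.42 and 1.499 CPM in control vehicle libraries. Its 0.24 (SE 0.26; edgeR adjusted p = 0.65) in mutants under vehicle rested on mutant vehicle library 3 and was -0.07 without it. The same library set its value for THC in mutants, -0.19 (SE 0.26; edgeR adjusted p = 0.91), which was 0.13 without it.

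Among the genes that block translation and replication, the Ifit family, whose proteins bind foreign RNA, varied within groups. Ifit1 was at 3.03, 2.19 and 2.53 CPM in mutant THC, 4.04, 2.78 and 3.15 CPM in mutant vehicle, 3.87, 2.91 and 3.11 CPM in control THC and 2.00, 2.31 and 4.50 CPM in control vehicle libraries. Control vehicle library 3 held the highest value of the 12. Its log2 fold changes were -0.36 (SE 0.29; edgeR adjusted p = 0.84) with THC in mutants and 0.18 (SE 0.28; edgeR adjusted p = 0.77) in mutants under vehicle, the last of which ran from -0.03 to 0.62 as each library was left out. Ifit3 was at 7.90, 6.91 and 6.53 CPM in mutant THC, 12, 8.29 and 9.18 CPM in mutant vehicle, 10.4, 7.998 and 9.17 CPM in control THC and 8.29, 7.41 and 11.3 CPM in control vehicle libraries. The mutant groups did not overlap, at -0.47 (SE 0.18; edgeR adjusted p = 0.81) for THC, and the genotypes under vehicle overlapped, at 0.13 (SE 0.18; edgeR adjusted p = 0.74). Ifit2 averaged 13.01 ± 1.42 CPM in mutant THC, 14.6 ± 1.505 in mutant vehicle, 12.2 ± 1.89 in control THC and 15.5 ± 3.86 in control vehicle libraries (SD, n = 3 each), with -0.26 (SE 0.12; edgeR adjusted p = 0.81) for THC averaged over genotypes.

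Eif2ak2 (PKR), a kinase that stops translation when it binds double-stranded RNA, was at 14.6, 11.3 and 11.2 CPM in mutant THC, 14.2, 15.2 and 16.9 CPM in mutant vehicle, 11.3, 12.4 and 11.2 CPM in control THC and 11.3, 11.9 and 9.67 CPM in control vehicle libraries. Mutant vehicle lay above control vehicle throughout, at 0.49 (SE 0.12; edgeR adjusted p = 0.16), and averaged over treatments the genotype difference was 0.29 (SE 0.09; edgeR adjusted p = 0.16). Oasl2, a relative of the oligoadenylate synthetases, was at 2.16, 2.39 and 2.12 CPM in mutant THC, 3.73, 2.67 and 2.74 CPM in mutant vehicle, 3.43, 2.57 and 2.52 CPM in control THC and 2.501, 2.18 and 2.30 CPM in control vehicle libraries. Samd9l, which restricts poxviruses and slows cell growth, was at 7.15, 5.12 and 7.10 CPM in mutant THC, 8.87, 7.81 and 9.26 CPM in mutant vehicle, 9.34, 6.77 and 6.81 CPM in control THC and 6.34, 4.75 and 6.41 CPM in control vehicle libraries. For both genes the THC libraries lay below the vehicle libraries in mutants and above them in controls. Cmpk2, a mitochondrial nucleotide kinase gene beside Rsad2, went another way: it averaged 27.6 ± 3.24 CPM in mutant THC, 26.5 ± 0.291 in mutant vehicle, 24.6 ± 0.730 in control THC and 26.8 ± 1.27 in control vehicle libraries (SD, n = 3 each), with 0.17 (SE 0.08; edgeR adjusted p = 0.55) for mutants under THC. Rsad2 (viperin) was at 1.56 to 3.81 CPM and Mx2 at 0.698 to 1.21 CPM over the libraries.

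In the group of ISG15, ubiquitin and ADP-ribose enzymes, all 8 were above 0 in mutants under vehicle, against 48.95% of all genes, and 4 reached the unadjusted threshold, against 11.2%. All 8 were below 0 with THC in mutants, against 52.51% of all genes, and 1 reached the threshold, against 3.2%. Trim30a, a TRIM protein that dampens inflammatory signalling in mice, was at 3.37, 2.47 and 3.38 CPM in mutant THC, 3.44, 4.21 and 4.11 CPM in mutant vehicle, 2.84, 3.41 and 2.69 CPM in control THC and 2.19, 2.31 and 2.04 CPM in control vehicle libraries. The control vehicle libraries were the lowest 3 of the 12. Under vehicle its log2 fold change in mutants was 0.85 (SE 0.16; edgeR adjusted p = 0.16), the smallest unadjusted p of a member in that comparison. With THC it was -0.35 (SE 0.16; edgeR adjusted p = 0.81) in mutants and 0.45 (SE 0.16; edgeR adjusted p = 0.70) in controls, and averaged over treatments the genotype difference was 0.44 (SE 0.11; edgeR adjusted p = 0.16). Parp14, which attaches ADP-ribose to proteins, was at 7.24, 6.25 and 5.24 CPM in mutant THC, 6.80, 6.11 and 7.56 CPM in mutant vehicle, 7.13, 6.53 and 7.37 CPM in control THC and 5.58, 4.65 and 4.83 CPM in control vehicle libraries. Its control groups did not overlap, at 0.48 (SE 0.13; edgeR adjusted p = 0.70) for THC, the smallest p among the members in controls.

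Isg15 was at 0.571, 0.739 and 0.697 CPM in mutant THC, 0.919, 0.783 and 0.609 CPM in mutant vehicle, 0.725, 0.577 and 0.420 CPM in control THC and 0.685, 0.510 and 0.853 CPM in control vehicle libraries. These are 15 to 35 counts per library, and all groups overlapped. Its log2 fold changes were -0.20 (SE 0.28; edgeR adjusted p = 0.91) with THC in mutants and 0.17 (SE 0.27; edgeR adjusted p = 0.77) in mutants under vehicle. Usp18, which removes ISG15 and curbs signalling at the interferon receptor, was at 0.931, 1.05 and 0.929 CPM in mutant THC, 1.10, 1.38 and 1.22 CPM in mutant vehicle, 0.948, 0.865 and 0.925 CPM in control THC and 0.921, 0.913 and 1.09 CPM in control vehicle libraries. Mutant vehicle lay above the 9 other libraries, with -0.34 (SE 0.17; edgeR adjusted p = 0.81) for THC in mutants and 0.34 (SE 0.17; edgeR adjusted p = 0.32) for mutants under vehicle. The others of this group, Trim21, Trim25, Parp9 and Dtx3l, ranged from 2.28 CPM for Trim21 to 11.8 CPM for Dtx3l. Each had non-overlapping genotypes under vehicle.

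Guanylate-binding proteins are GTPases that attack the vacuoles and membranes of microbes. Gbp2 was at 4.48, 5.23 and 4.96 CPM in mutant THC, 6.88, 6.996 and 6.72 CPM in mutant vehicle, 5.16, 5.48 and 5.75 CPM in control THC and 5.58, 4.33 and 4.81 CPM in control vehicle libraries. The mutant vehicle libraries lay close together, above the other 9. Its log2 fold change was -0.49 (SE 0.11; edgeR adjusted p = 0.81) with THC in mutants and 0.48 (SE 0.11; edgeR adjusted p = 0.16) in mutants under vehicle, and the interaction was -0.64 (SE 0.16; edgeR adjusted p = 0.54). With the choroid plexus covariate these were -0.51 for THC in mutants and 0.54 under vehicle. Gbp3 and Gbp7 were at 4.38 to 6.01 and 7.44 to 10.98 CPM.

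Of the other induced genes, Ifi27 was at 45.2, 24.6 and 34.4 CPM in mutant THC, 39.4, 51.4 and 67.5 CPM in mutant vehicle, 29.96, 41.9 and 21.6 CPM in control THC and 29.8, 23.2 and 25.2 CPM in control vehicle libraries. Within the mutant THC, mutant vehicle and control THC groups, its highest library was the one with the highest choroid plexus sum. In the control vehicle group its highest was library 1 (sum 115.8 CPM), while library 3 had the highest sum (150 CPM). Its log2 fold change in mutants under vehicle was 1.02 (SE 0.28; edgeR adjusted p = 0.16), and 0.17 with the choroid plexus covariate. Lgals3bp was at 18.6, 6.76 and 11.3 CPM in mutant THC, 11.8, 16.3 and 19.2 CPM in mutant vehicle, 8.70, 11.8 and 7.54 CPM in control THC and 7.56, 6.39 and 5.95 CPM in control vehicle libraries. Its order within the mutant THC, mutant vehicle and control THC groups put the library with the highest choroid plexus sum first in each. In the control vehicle group the library with the highest sum, library 3 at 150 CPM, was the lowest for Lgals3bp. The log2 fold change in mutants under vehicle was 1.25 (SE 0.32; edgeR adjusted p = 0.16) and 0.25 with the covariate, and averaged over treatments it was 0.82 (SE 0.23; edgeR adjusted p = 0.16).

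Ifi35, a leucine zipper protein, was at 2.79, 2.47 and 2.38 CPM in mutant THC, 3.52, 2.94 and 3.37 CPM in mutant vehicle, 2.40, 3.44 and 2.21 CPM in control THC and 1.84, 2.02 and 2.197 CPM in control vehicle libraries. Under vehicle the genotypes did not overlap, at 0.70 (SE 0.18; edgeR adjusted p = 0.16), and the covariate gave 0.37. Cxcl10, a chemokine that draws T cells, was at 0.180, 0.341 and 0.103 CPM in mutant THC, 0.210, 0.756 and 0.482 CPM in mutant vehicle, 0.279, 0.288 and 0.505 CPM in control THC and 0.290, 0.188 and 0.310 CPM in control vehicle libraries. On 4 to 28 counts per library its groups overlapped, with -1.21 (SE 0.53; edgeR adjusted p = 0.81) for THC in mutants and 0.87 (SE 0.50; edgeR adjusted p = 0.39) for mutants under vehicle. Xaf1, Ifi44, Rtp4 and Sp100 ranged from 0.171 CPM for Ifi44 to 6.01 CPM for Xaf1. None of these 4 reached an unadjusted p under 0.05 in mutants under vehicle or with THC in mutants. Over all genes the shares were 11.2% higher and 6.63% lower under vehicle, and 2.53% higher and 3.2% lower with THC in mutants.

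Split by promoter, the 17 members with an ISRE core had a median log2 fold change of 0.48 in mutants under vehicle, 16 of them above 0, and the 15 members with a window without it a median of 0.24, 13 of them above 0. With THC in mutants the medians were -0.35 with the ISRE core, 17 of 17 below 0, and -0.23 without it, 13 of 15 below 0. The difference between these medians was not tested.

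Genes that make, receive or relay interferon signals were looked at beside the members, and 0 of them passed the adjusted threshold in edgeR in any comparison. Of 21 interferon genes in the table, including Ifnb1, which had 0 counts in all 12 libraries, 0 passed the filter, and the highest count of any was 3. Among 9 genes of the receptors and kinases, 3 were higher and 0 lower in mutants under vehicle at the unadjusted threshold, against 11.2% and 6.63% of all genes. With THC in mutants 2 were lower, against 3.2%. Ifnar2, a subunit of the type I receptor, had the smallest p under vehicle. It averaged 22.9 ± 0.791 CPM in mutant THC, 25.4 ± 0.695 in mutant vehicle, 22.9 ± 0.684 in control THC and 20.4 ± 0.683 in control vehicle libraries (SD, n = 3 each). Its log2 fold change was 0.31 (SE 0.05; edgeR adjusted p = 0.16) in mutants under vehicle and 0.17 (SE 0.06; edgeR adjusted p = 0.70) with THC in controls, and the interaction was -0.31 (SE 0.08; edgeR adjusted p = 0.58). The other subunit, Ifnar1, averaged 88.0 ± 15.0 CPM in mutant THC, 85.3 ± 3.03 in mutant vehicle, 90.1 ± 8.69 in control THC and 92.5 ± 11.2 in control vehicle libraries. The kinase gene Jak1 averaged 230 ± 11.9 CPM in mutant THC, 231 ± 10.3 in mutant vehicle, 240 ± 6.26 in control THC and 248 ± 8.55 in control vehicle libraries. Tyk2 averaged 16.6 CPM in mutant THC, 16.9 in mutant vehicle, 18.9 in control THC and 18.9 in control vehicle libraries. Il10rb, a shared receptor chain, was at -0.44 (SE 0.15; edgeR adjusted p = 0.81) with THC in mutants and -0.11 (SE 0.11; edgeR adjusted p = 0.88) averaged over genotypes. Ifngr1, of the interferon gamma receptor, was at 0.27 (SE 0.12; edgeR adjusted p = 0.55) in mutants under THC.

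Irf3, which switches on interferon genes, averaged 14.2 CPM in mutant THC, 15.9 in mutant vehicle, 14.8 in control THC and 14.9 in control vehicle libraries (n = 3 each). Mavs, the mitochondrial adaptor of RIG-I and MDA5, averaged 8.79 ± 1.71 CPM in mutant THC, 10.99 ± 1.48 in mutant vehicle, 8.34 ± 2.02 in control THC and 7.54 ± 0.159 in control vehicle libraries, with 0.54 (SE 0.18; edgeR adjusted p = 0.18) for mutants under vehicle. Over the 16 genes of upstream signalling, 4 were higher and 1 was lower in mutants under vehicle at the unadjusted threshold, against 11.2% and 6.63% of all genes, and 2 were lower with THC in mutants, against 3.2%. Trim56 gave the smallest p of the list under vehicle, at 0.39 (SE 0.11; edgeR adjusted p = 0.16), and was at 0.28 (SE 0.11; edgeR adjusted p = 0.70) with THC in controls. Ikbke, a kinase upstream of interferon genes, was at -0.72 (SE 0.21; edgeR adjusted p = 0.81) with THC in mutants, -0.85 (SE 0.30; edgeR adjusted p = 0.71) in the interaction and -0.29 (SE 0.15; edgeR adjusted p = 0.82) averaged over genotypes. Tlr9 was at 0.85 (SE 0.31; edgeR adjusted p = 0.55) in mutants under THC and Traf3 at -0.18 (SE 0.07; edgeR adjusted p = 0.18) for genotype averaged over treatments.

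Of the 10 negative regulators, 0 reached an unadjusted p under 0.05 in mutants under vehicle, against 11.2% of all genes higher and 6.63% lower. With THC in mutants 0 of these 10 did so, against 2.53% of all genes higher and 3.2% lower. Their smallest p values belonged to Tnfaip3, at 0.28 (SE 0.18; edgeR adjusted p = 0.81) with THC in mutants, and to Nlrx1, at -0.26 (SE 0.08; edgeR adjusted p = 0.70) with THC in controls and 0.32 (SE 0.12; edgeR adjusted p = 0.71) in the interaction. Ptpn2 was at -0.13 (SE 0.06) under THC, -0.14 (SE 0.06) under vehicle and -0.13 (SE 0.05) averaged over treatments for mutants, and Pias1 at 0.08 (SE 0.04) for THC averaged over genotypes. A further list of 65 interferon-induced genes outside the 41 gave 55 tested genes and 0 past the adjusted threshold. In mutants under vehicle 43 of the 55 were above 0, against 48.95% of all genes, with a median of 0.25. At the unadjusted threshold 14 were higher, against 11.2% of all genes, and 1 was lower, against 6.63%. With THC in mutants 42 of 55 were below 0, against 52.51% of all genes, with a median of -0.21, and 8 were lower at that threshold, against 3.2%. Irgm2, an immunity-related GTPase, averaged 4.33 CPM in mutant THC, 5.54 in mutant vehicle, 4.17 in control THC and 3.48 in control vehicle libraries, with 0.67 (SE 0.12; edgeR adjusted p = 0.16) under vehicle and 0.36 (SE 0.09; edgeR adjusted p = 0.16) averaged over treatments. Gbp10 averaged 0.142 CPM in mutant THC, 0.752 in mutant vehicle, 0.378 in control THC and 0.149 in control vehicle libraries, with -2.38 (SE 0.56; edgeR adjusted p = 0.81) for THC in mutants and -3.70 (SE 0.81; edgeR adjusted p = 0.54) in the interaction. The smallest p for THC in controls belonged to Ly6e, at 0.35 (SE 0.13), for mutants under THC to Parp11, at 0.17 (SE 0.05), and for THC averaged over genotypes to Gbp5, at -0.32 (SE 0.13).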

How the data were processed

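For the 12 libraries the authors deposited a single table holding an expected count for each gene and library, with no scaling for depth or length and with 0 columns of no sample. Per the labels' protocols, rRNA was depleted and sequencing was paired-end. RSEM 1.2.21, Bowtie2 2.2.2, CASAVA 1.8.4, edgeR 3.10.2, FastQC and the build mm10 stand in the submitters' processing notes. In each library 27.2% to 29.4% of the counts had a fractional part. Row names are RefSeq transcript accessions, and symbols came from RefSeq GRCm38.p6 and GENCODE M21. Transcript lengths and coordinates came from the same sources.

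Counts were rounded, filtered with filterByExpr (minimum count 10) and scaled with TMM (factors 0.99 to 1.01). All 12 libraries were fitted with 4 group means and 8 residual degrees of freedom by edgeR 4.0.16 (quasi-likelihood, robust, R 4.3.3), p-values were adjusted by Benjamini-Hochberg over all 15802 genes, and the threshold was 0.05. Standard errors came from the F statistic. Fits were tested on simulated data first. Alternatives were DESeq2 1.42.0, limma-voom (limma 3.58.1), other normalization, no filter, only the groups compared, a choroid plexus score as covariate and each library left out.

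The members and lists were chosen with earlier results of these data known. Members given in full had 1 of the 4 smallest p-values among the members in any comparison or were among 10 genes set by name. For 1 gene of the pathway lists, the values are not reported here. Ifih1, Oasl2, Samd9l, Ifi27, Ifi35 and the choice of libraries to leave out together were added after their values were seen. No library pair was a repeat: the lowest mean chi-square per gene over 66 pairs was 11.2.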

Additional observations from a re-analysis of the deposited data

Results flagged for a closer look

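For 4 members every THC library lay below every vehicle library in mutants and above every vehicle library in controls, as did 0.519% of all genes tested. No member showed the opposite arrangement, against 0.228% of all genes. The difference between the THC effects was -0.74 on the log2 scale for Oasl2 (SE 0.25; edgeR adjusted p = 0.69), -0.81 for Samd9l (SE 0.25; edgeR adjusted p = 0.66), -0.80 for Trim30a (SE 0.23; edgeR adjusted p = 0.66) and -0.78 for Ifi35 (SE 0.25; edgeR adjusted p = 0.68), so 0 of the 4 passed the threshold on the difference itself. In mutants the THC values of these genes were -0.46 (SE 0.17) for Oasl2, -0.42 (SE 0.18) for Samd9l, -0.35 (SE 0.16) for Trim30a and -0.36 (SE 0.18) for Ifi35. Choroid plexus sums ran from 104.7 to 7000 CPM in mutant THC, 4047 to 11190 CPM in mutant vehicle, 127.8 to 5842 CPM in control THC and 77.9 to 150 CPM in control vehicle libraries. The fit with the choroid plexus covariate was run for the interaction too, and its median over the members is given below. The interaction values of that fit for the 4 genes are not given here. The part of these markers in these 4 results was not tested.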

How the results depend on the processing

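Calls depended on the tool more than directions did. Past the adjusted threshold, DESeq2 called 1 member for THC in mutants, 11 for genotype under vehicle and 5 for genotype averaged over treatments, the fit of only the groups compared called 7 for genotype under vehicle, and leaving out each library gave 0 to 3 for genotype averaged over treatments (3 without mutant THC library 2), against 0 in the edgeR fit of all libraries. The median of the members was 0.30 for genotype under vehicle and -0.32 for the interaction with the choroid plexus covariate. It ranged from -0.41 to -0.25 for THC in mutants and from -0.58 to -0.39 for the interaction as each library was left out, with both lowest values without mutant THC library 1; the cause was not tested. Of the other summary values and settings run, 251 were counted as unchanged. For a count of members past the adjusted threshold, this meant staying at 0, the count in the main fit of every comparison. Counts at the unadjusted threshold were left out of the 251. Over the settings, 39 of those counts moved beyond a set ratio of the main count. For a median it meant moving by less than 0.0914, the pooled within-group SD of the mean log2 CPM over the members. Direction and side of the threshold were compared for single genes only. Signs turned for Irf7 with THC in mutants (-0.41 to 0.13 as each library was left out, 0.15 without both libraries with raised striatal markers), for Irf7 under vehicle (-0.073 to 0.47, and -0.077 without both), for Irf9 under vehicle (-0.023 with the covariate), and for Ifit1 and Ifit3 under vehicle (-0.034 to 0.62 and -0.040 to 0.32 as each library was left out). The alternative without both striatal-marker libraries was chosen after seeing the data. No paired analysis was run because the labels give no pairing of libraries between groups. Genes with few counts, such as Cxcl10, Isg15, Mx1 and Zbp1, are limited by depth.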
